A study of Homo sapiens with 18 samples.

Results

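The genes described here encode proteoglycans and the hyaluronan system of the extracellular matrix: the hyaluronan synthases HAS1, HAS2 and HAS3, the hyaluronan receptor CD44, the hyaluronan-binding proteoglycans versican (VCAN) and aggrecan (ACAN), their link protein HAPLN1, and the small leucine-rich proteoglycans decorin (DCN), biglycan (BGN) and lumican (LUM). They were chosen by gene symbol alone, and all 10 were found among the 61544 genes listed in each of the 2 deposited count tables. The cells were BJ, an established line of human skin fibroblasts, and the study lowered or raised in them a long noncoding RNA called PURPL. The series asks what PURPL does in cellular senescence, the lasting exit of a cell from division. In the knockdown table, cells with CRISPR interference (a guided repressor that lowers transcription) and either of 2 guide RNAs, sgRNA-PURPL#1 and sgRNA-PURPL#2 (here guide 1 and guide 2, sgPURPL-1 and sgPURPL-2 in the plots), stood against cells with the control guide sgCtrl. In the overexpression table, PURPL#1-OE and PURPL#2-OE (here line 1 and line 2, PURPL-OE-1 and PURPL-OE-2 in the plots) stood against their own control, Ctrl. Each of the 6 groups held 3 libraries. The labels give no time, passage, promoter, vector or clone, and nothing in them says that replicates came from separate cultures, so p-values measure the spread between these libraries only.

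Hyaluronan is a long, unsulfated sugar polymer that HAS enzymes build at the plasma membrane from UDP-sugars and extrude into the matrix. Versican and aggrecan, called hyalectans, carry chondroitin sulfate chains and bind hyaluronan through their N-terminal domain, and HAPLN1 locks that contact in place. CD44 anchors hyaluronan to the cell. Decorin, biglycan and lumican are smaller proteins of leucine-rich repeats that bind collagen fibrils and set their thickness and spacing, and decorin and lumican are among the main proteoglycans of the dermis.

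Library totals were 11444513 to 12896040 counts for knockdown and 18858976 to 27985649 for overexpression. All 18 libraries correlated more closely with their own group than with another group of the same table. PURPL went the way its labels say: 80.8 ± 12.02 CPM (counts scaled to a common library size within a table; mean ± SD, n = 3) in sgCtrl, 15.7 ± 1.94 with guide 1 and 19.5 ± 1.83 with guide 2. It stood at 64.4 ± 4.50 in Ctrl, 173 ± 6.40 in line 1 and 123 ± 7.53 in line 2. All 9 fibroblast markers had counts, and their summed level was 10321 to 11634 CPM in the knockdown table, 13367 to 14548 in Ctrl and 16836 to 18240 in the 2 lines. Markers of other cells were low in every library, with sums of 0.0358 to 1.43 CPM for 4 melanocyte genes, 0.475 to 2.30 for 4 endothelial genes and 0.277 to 2.27 for 4 immune genes. The sum was 7.95 to 14.7 for 6 keratinocyte genes, of which 1 was at 0 throughout. For 5 chondrocyte genes, 3 of them below 1 CPM in every library, the sum was 4.07 to 6.77 CPM in sgCtrl, 5.23 to 6.10 with guide 1, 6.44 to 7.89 with guide 2, 5.22 to 6.35 in Ctrl, 1.86 to 2.003 in line 1 and 2.29 to 3.10 in line 2. Both lines thus lay below Ctrl without overlap, and the part of this difference in the results was not tested. In RNA from whole cultures, fewer cells expressing a gene and less RNA per cell cannot be told apart.

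Levels between genes are compared here per kilobase of exon (all exons of a gene merged, GENCODE v29), a scale that takes no account of which isoforms the cells used. The deposited gene lengths are whole spans, and no gene wholly inside a same-strand gene had counts, so the counts appear to include reads in introns. The scale does not correct for such reads, and the order between genes and the ranks below may depend on them. Lumican stood far above the others, at 1882 CPM per kb in sgCtrl and 2814 in Ctrl. By this measure it was the 10th most abundant protein-coding gene of 15007 with counts in sgCtrl and the 5th of 15396 in Ctrl, and its reads were 0.451% to 1.106% of all counts in a library. In sgCtrl the order went on with CD44 at 111, DCN at 33.0 and BGN at 30.4 CPM per kb, whose library ranges did not overlap, and then dropped to VCAN at 0.448, HAS3 at 0.305 and HAS2 at 0.282, where neighbours in the order overlapped. In Ctrl, DCN at 131 stood above CD44 at 109 and BGN at 96.9, followed by VCAN at 6.14, HAS2 at 3.03, HAPLN1 at 0.844 and HAS3 at 0.211 CPM per kb, with no overlap between neighbours. HAS1 had 0 counts in all 18 libraries. In the knockdown table, 3 counts over the 3 libraries of guide 2 would be 0.0815 CPM, and the 95% upper limit for 0 counts there was 0.100 CPM. ACAN, the main proteoglycan of cartilage, had 2 counts in sgCtrl (both in replicate 3), 1 in line 1, 5 in line 2 and 0 in the other groups. Neither HAS1 nor ACAN was tested.

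**Figure D1:**
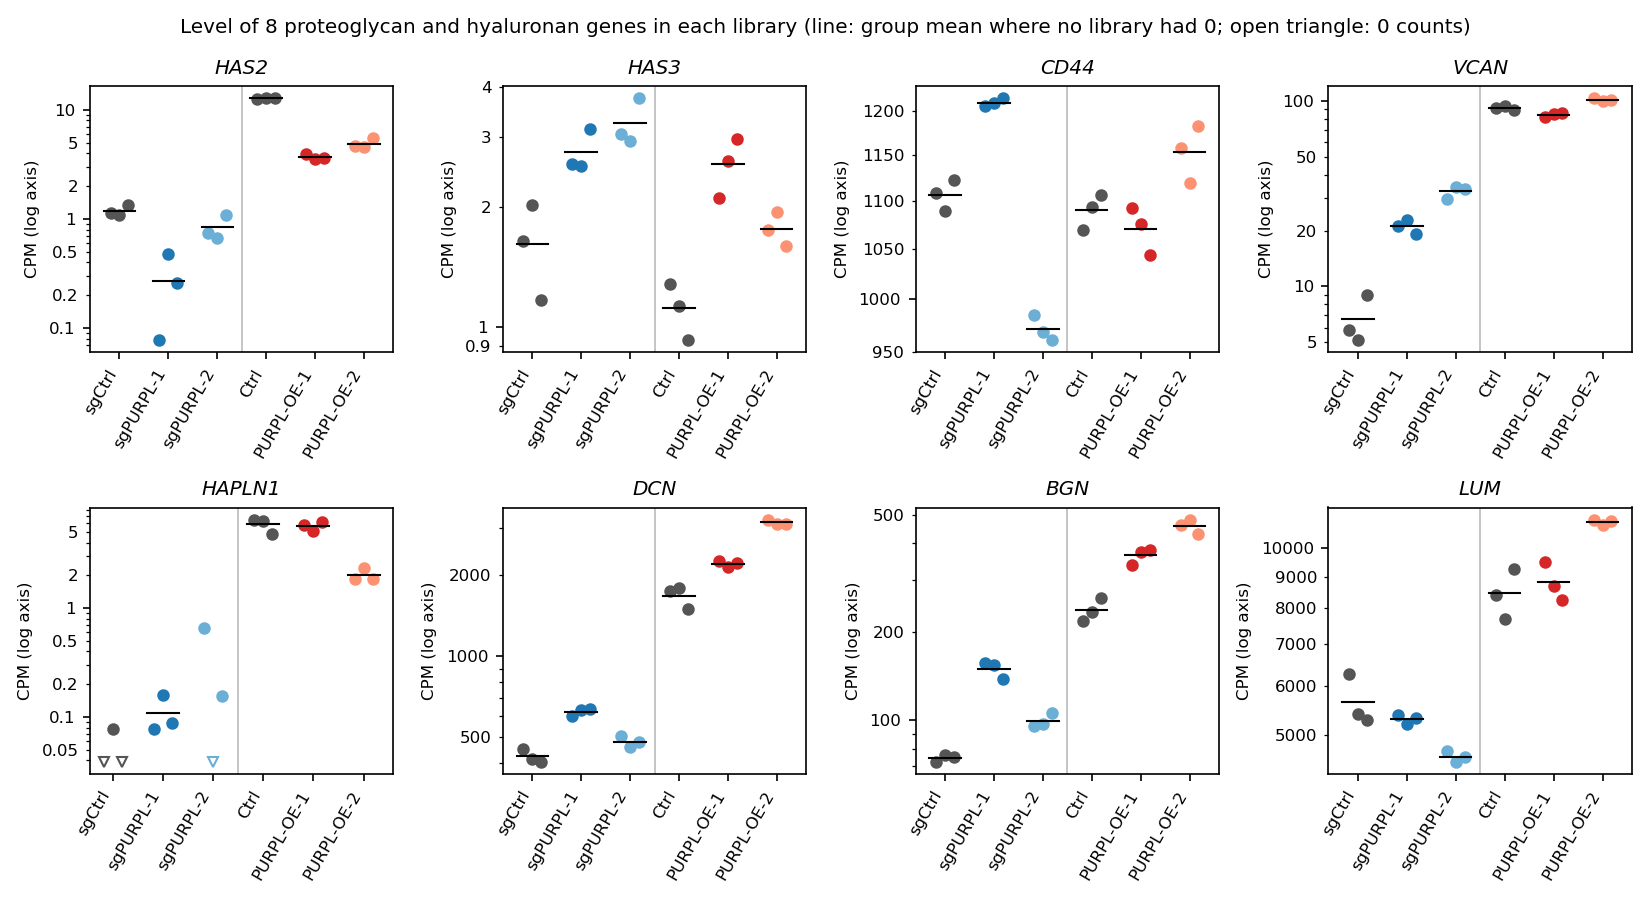
Level of the 8 genes with enough counts to plot, in each library (points; CPM on a log axis, scaled within each table), by group, with the knockdown table left and the overexpression table right of the grey line. Black bars are means of 3 libraries where none was at 0, and open triangles mark libraries with 0 counts. VCAN climbs from sgCtrl (5.14 to 9.004 CPM) to guide 2 (29.7 to 34.5 CPM), HAS2 falls from Ctrl to both lines, and BGN is above its control in all 4 arms.

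The genes lie apart in the genome except for 2 pairs. On chromosome 5, VCAN (chr5:83471618-83582303, plus strand) and HAPLN1 (chr5:83637805-83720855, minus strand) are separated by 55.5 kb, and on chromosome 12, LUM (chr12:91102629-91111494) and DCN (chr12:91140484-91183217), both on the minus strand, by 28.99 kb, with 0 protein-coding genes between the partners in either case. BGN is on the X chromosome (chrX:153494980-153509546, plus strand), CD44 on chromosome 11 (chr11:35138882-35232402, plus strand), HAS3 on chromosome 16 (chr16:69105653-69118719, plus strand). HAS1 is on chromosome 19 (chr19:51713112-51723991, minus strand) and ACAN on chromosome 15 (chr15:88803436-88875353, plus strand). These are whole gene spans as the deposited tables give them, and the submitters' processing notes name hg38 and GRCh38.p13. CD44 partly overlaps 1 gene on its own strand (ENSG00000251194), and reads shared with it may be missing from its counts. The other 9 genes overlap no gene on their strand. On the opposite strand, HAS3 overlaps CHTF8 and DERPC, BGN overlaps HAUS7, and HAS2, VCAN and CD44 have named antisense genes. The strand setting of the counting is not given in the sources used here, but the counts show that strands were told apart: of 9429 genes lying wholly inside a gene of the same strand, 0 had counts, whereas of 10950 genes lying inside a gene of the opposite strand only, 43.6% had counts, against 51.1% of 22705 genes with no overlap. Of the related genes named further on, TNFAIP6, UAP1, NCAN, ECM2, SDC4, TGFBR3, AGRN, SRGN and CHSY3 partly overlap a gene on their own strand, and their counts are uncertain in the same way.

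Promoter sequences of 300 bases (250 before and 50 after the RefSeq start, GRCh38.p14) were found for 7 of the 10 genes. The 4 shown belong to genes on which the results below turn: VCAN and HAPLN1, neighbours of which only HAPLN1 fell in line 2, and BGN and HAS3, which rose in all 4 arms. VCAN is read from chr5:83471494-83471793 on the plus strand, HAPLN1 from chr5:83720806-83721105 on the minus strand, BGN from chrX:153494730-153495029 on the plus strand and HAS3 from chr16:69107290-69107589 on the plus strand. The RefSeq start is the gene start of the count tables for HAPLN1 and BGN, lies 126 bases from it for VCAN and 1887 bases from it for HAS3. Capitals mark matches, on either strand, to any of 7 short motifs, namely TATAAA, then CCAAT, then GGGCGG (called a GC box), then CACGTG (called an E-box), then TGANTCA, then CAGACA and last GGCGCC; no base lies in 2 matches.
VCAN: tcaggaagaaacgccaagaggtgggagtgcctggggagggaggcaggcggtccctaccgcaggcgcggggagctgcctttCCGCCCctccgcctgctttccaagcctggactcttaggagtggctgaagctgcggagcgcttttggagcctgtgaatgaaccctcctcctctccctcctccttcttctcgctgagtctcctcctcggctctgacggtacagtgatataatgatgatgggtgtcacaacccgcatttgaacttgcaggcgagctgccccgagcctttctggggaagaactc
HAPLN1: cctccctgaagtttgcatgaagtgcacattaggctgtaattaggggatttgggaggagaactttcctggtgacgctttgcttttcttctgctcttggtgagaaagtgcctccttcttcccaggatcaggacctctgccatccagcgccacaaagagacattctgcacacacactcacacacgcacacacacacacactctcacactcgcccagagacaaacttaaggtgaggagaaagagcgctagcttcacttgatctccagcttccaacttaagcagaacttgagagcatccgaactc
BGN: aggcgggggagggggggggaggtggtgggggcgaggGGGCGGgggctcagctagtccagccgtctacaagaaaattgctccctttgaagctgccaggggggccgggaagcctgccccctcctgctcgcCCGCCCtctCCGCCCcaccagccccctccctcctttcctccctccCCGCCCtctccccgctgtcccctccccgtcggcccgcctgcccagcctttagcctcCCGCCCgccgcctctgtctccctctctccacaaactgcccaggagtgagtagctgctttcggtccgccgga
HAS3: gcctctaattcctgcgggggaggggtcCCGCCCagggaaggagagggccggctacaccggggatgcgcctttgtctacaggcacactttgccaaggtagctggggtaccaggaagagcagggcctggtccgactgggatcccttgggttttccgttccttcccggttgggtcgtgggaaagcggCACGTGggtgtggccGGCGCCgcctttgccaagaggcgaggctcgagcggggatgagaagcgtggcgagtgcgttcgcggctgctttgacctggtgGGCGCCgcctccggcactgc
The GC box had 1 match in VCAN, 5 in BGN, 1 in HAS3 and 0 in HAPLN1, and 45.0% of all 35116 RefSeq promoters of this length hold at least 1. HAS3 also held 1 CACGTG, present in 7.26% of all promoters, and 2 GGCGCC, present in 19.2%. The remaining 4 motifs, present in 11.5% (TATAAA), 34.6% (CCAAT), 7.71% (TGANTCA) and 16.9% (CAGACA) of promoters, had 0 matches in these 4 windows. G and C made up 60.3% of the VCAN window, 50% of HAPLN1, 71.7% of BGN and 67% of HAS3, against a median of 58.7%. A match describes letters only, and none was tested for binding.

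Each arm was compared with the control of its own table by edgeR's quasi-likelihood test, fitted over all genes that passed a filter on low counts, and adjusted p-values (Benjamini-Hochberg, threshold 0.05) are over all of these genes. With guide 1, 4 of the 7 genes tested were higher and 1 lower, where 24.5% of all 13923 tested genes were called (11.6% higher, 12.9% lower). With guide 2, 4 were higher and 2 lower of 7, where 24.4% of all genes were called (11.9% higher, 12.4% lower). In line 1, 3 of the 8 tested were higher and 1 lower, where 39.6% of 15267 genes were called (19.5% higher, 20.1% lower). In line 2, 5 of 8 were higher and 2 lower, where 38.5% of all genes were called (18.9% higher, 19.6% lower). Between the guides, 1 of 7 was higher and 4 lower with guide 2, where 9.25% of all genes were called (5.51% higher, 3.74% lower). Between the lines, 5 of 8 were higher and 1 lower in line 2, where 12.4% of all genes were called (6.18% higher, 6.19% lower). The median log2 fold change of the tested genes was 0.55, 0.18, 0.016 and 0.27 in the 4 arms against control, and that of all genes lay within 0.01 of 0. DCN, BGN and HAS3 were called higher in all 4 arms, as were 1.48% of the 13638 genes tested in both tables. HAS2 passed the filter of the knockdown table only through sgCtrl, where all 3 libraries exceeded the cutoff of 0.799 CPM, against 0 of 3 with guide 1 and 1 of 3 with guide 2. A gene kept in this way had to be lower in some arm, so its call there is no support for a fall. The 1 lower call with guide 1 was HAS2.

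**Figure D2:**
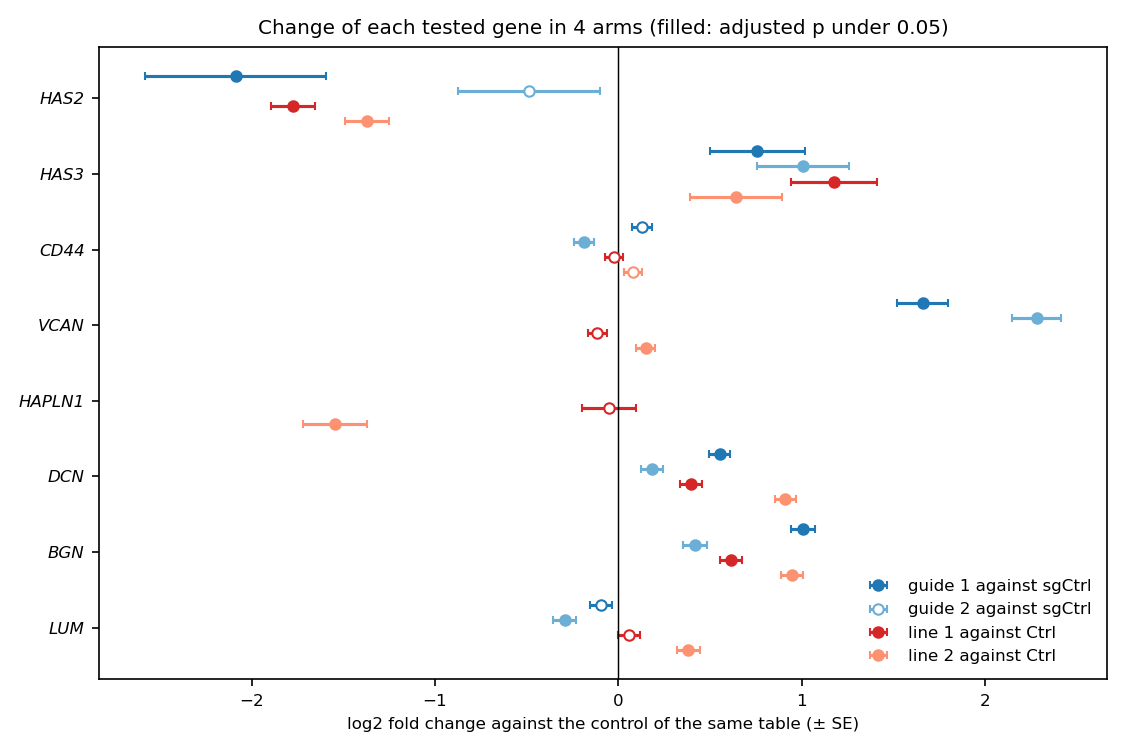
Log2 fold change of each tested gene against the control of its own table (x axis, points ± SE) in the 4 arms (colours). The SE was derived from the F statistic of edgeR's quasi-likelihood test, and filled points have an adjusted p under 0.05. VCAN stands at 1.66 and 2.28 with the guides and near 0 in the lines, whereas HAS3, DCN and BGN are right of 0 in every arm.

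Among the synthases, HAS2, the main hyaluronan synthase of fibroblasts, fell in both overexpression lines. The libraries held 324, 325 and 247 HAS2 counts in Ctrl (12.6, 12.7 and 12.8 CPM), 110, 78 and 92 in line 1 (3.93, 3.51 and 3.64 CPM) and 88, 98 and 133 in line 2 (4.69, 4.54 and 5.45 CPM). All 6 libraries of the lines were below all 3 controls, and lines 1 and 2 did not overlap. HAS2 was 3.42-fold lower in line 1 (log2 fold change -1.78 ± 0.121, SE; adjusted p = 3.29e-13) and 2.58-fold lower in line 2 (-1.37 ± 0.119; adjusted p = 9.47e-11).

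In the knockdown table HAS2 was close to the limit of counting. The libraries held 13, 14 and 17 counts in sgCtrl, 1, 6 and 3 with guide 1, and 9, 8 and 14 with guide 2. Guide 1 lay below sgCtrl in every library, at 0.272 ± 0.199 against 1.18 ± 0.130 CPM, and guide 2, at 0.837 ± 0.227 CPM, overlapped it. The fitted log2 changes were -2.09 ± 0.494 (adjusted p = 0.00189) with guide 1 and -0.49 ± 0.390 (adjusted p = 0.401, approximate 95% interval -1.25 to 0.28) with guide 2. As HAS2 passed the filter of this table only through sgCtrl, the guide 1 call is no support for a fall. The guides were not called different from each other (1.60 ± 0.530; adjusted p = 0.0542). On leaving out 1 library this difference ranged from 1.16 to 2.29, the highest being without guide 1 replicate 2 (adjusted p = 0.0368). A transcript of the opposite strand, HAS2-AS1, had 80 counts over the 3 Ctrl libraries, 40 in line 1 and 51 in line 2, and 5, 7 and 10 counts in sgCtrl, guide 1 and guide 2.

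HAS3, a synthase that makes shorter hyaluronan chains, was higher in every arm. It held 19, 26 and 15 counts in sgCtrl (1.62 ± 0.425 CPM), 33, 32 and 36 with guide 1 (2.75 ± 0.339) and 37, 35 and 48 with guide 2 (3.25 ± 0.443). In the other table it held 33, 29 and 18 counts in Ctrl (1.12 ± 0.179 CPM), 59, 58 and 75 in line 1 (2.56 ± 0.430) and 33, 42 and 39 in line 2 (1.77 ± 0.173). No arm overlapped its control on the CPM scale. HAS3 rose 1.69-fold with guide 1 (log2 0.76 ± 0.258; adjusted p = 0.0306) and 2.01-fold with guide 2 (1.01 ± 0.251; adjusted p = 0.00324). In line 1 the rise was 2.26-fold (1.18 ± 0.234; adjusted p = 0.00015), and in line 2 it was 1.56-fold (0.64 ± 0.250; adjusted p = 0.0422). The calls of guide 1 and line 2 rest on few counts. By DESeq2 they had adjusted p = 0.108 and 0.121. The line 2 call was lost as well without the filter on low counts (adjusted p = 0.08655) and with only the 2 groups compared (0.0608). That of guide 1 was also lost on leaving out any 1 of its 6 libraries except sgCtrl replicate 2 (adjusted p = 0.0502 to 0.137), and that of line 2 without Ctrl replicate 2 or 3 or either unnumbered library of line 2 (adjusted p = 0.0758 to 0.128).

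The HAS2 share of HAS2 and HAS3 counts was lower in each arm than in its control. HAS2 gave 90.8% to 93.2% of the HAS2 and HAS3 counts in Ctrl, 55.1% to 65.1% in line 1 and 70% to 77.3% in line 2. In the knockdown table it gave 35% to 53.1% in sgCtrl, 2.94% to 15.8% with guide 1 and 18.6% to 22.6% with guide 2. Each arm lay wholly below its control, for which the exact permutation test (two-sided) gives p = 0.1, the smallest that 3 libraries against 3 allow. With the guides this rests on few HAS2 counts. HAS2 itself was not called with guide 2 and passed the filter only through sgCtrl, so the lower share with the guides is no support for a fall of HAS2. HAS2 thus held most of these counts in all 9 libraries of the overexpression table, and HAS3 did in 8 of the 9 libraries of the knockdown table.

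**Figure D3:**
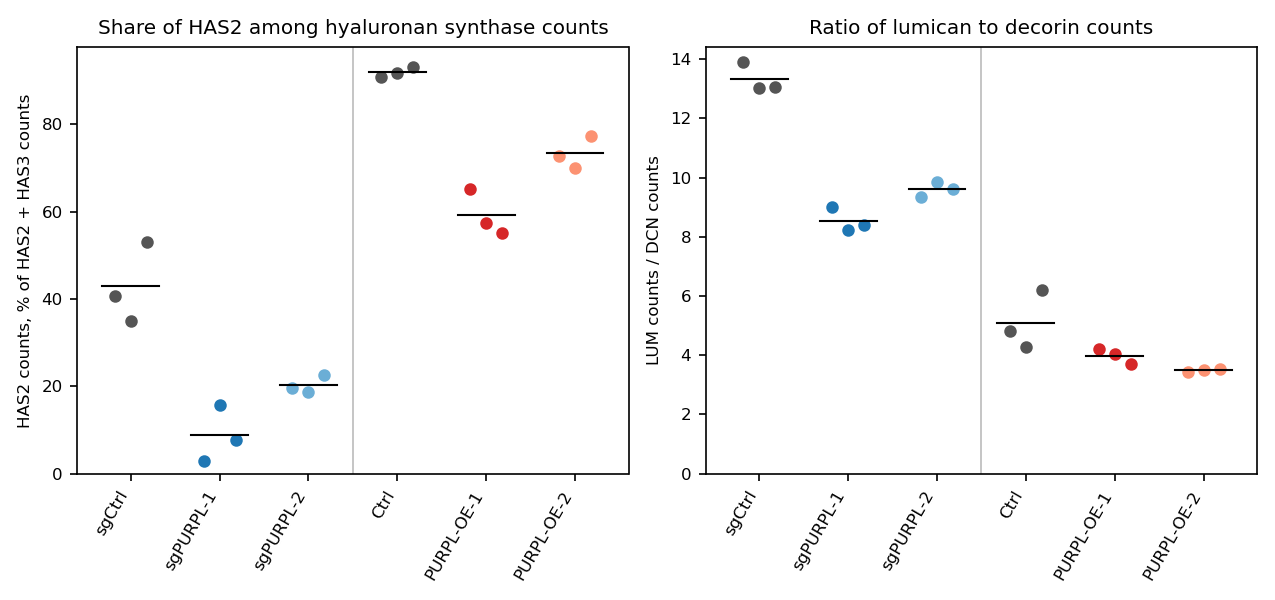
Left, HAS2 counts as a percentage of HAS2 plus HAS3 counts in each library (points; black bars are means of 3), and right, the ratio of LUM to DCN counts; the grey line parts the knockdown from the overexpression table. The HAS2 share lies between 90.8% and 93.2% in Ctrl and below it in both lines, and the LUM to DCN ratio is lower in all 4 arms than in their controls.

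CD44, the hyaluronan receptor, fell with guide 2 by a small amount and was not called in the other arms. It stood at 1107 ± 16.3 CPM in sgCtrl, 1210.3 ± 4.96 with guide 1 and 971 ± 12.2 with guide 2, and at 1090 ± 18.6 in Ctrl, 1071 ± 24.6 in line 1 and 1153 ± 31.8 in line 2. The guides lay on opposite sides of sgCtrl, without overlap. The fall with guide 2 was called (log2 -0.19 ± 0.0538; adjusted p = 0.01). The difference with guide 1 was not (0.13 ± 0.0537; adjusted p = 0.08, and 0.0092 by DESeq2), and guide 2 was 1.25-fold lower than guide 1 (-0.32 ± 0.0538; adjusted p = 0.000103). Neither line passed the test, with approximate 95% intervals of the log2 change from -0.12 to 0.07 in line 1 and from -0.01 to 0.18 in line 2.

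Of 15 other genes of hyaluronan turnover and reception, 10 were tested. With guide 1, 1 was higher and 2 lower, and with guide 2, 1 and 3. In line 1, 4 were higher and 2 lower, and in line 2, 5 and 3. Over all genes tested, 24.5% were called with guide 1, 24.4% with guide 2, 39.6% in line 1 and 38.5% in line 2. HMMR, a hyaluronan-binding protein that is also a spindle protein made by dividing cells, fell in all 4 arms. It went from 53.9 ± 3.25 CPM in sgCtrl to 28.99 ± 1.52 and 42.2 ± 1.80 with the guides, and from 53.6 ± 2.31 in Ctrl to 17.6 ± 1.20 and 16.8 ± 2.80 in the lines. LAYN, a transmembrane hyaluronan receptor, fell with both guides (log2 -0.21 and -0.18; adjusted p = 0.00736 and 0.022) and rose in both lines (0.45 and 0.43; adjusted p = 2.23e-07 and 4.43e-07). Its call was lost for guide 1 without guide 1 replicate 3 (adjusted p = 0.0745) and for guide 2 without sgCtrl replicate 2 or guide 2 replicate 1 or 2 (0.075 to 0.13). The guide 2 call was also lost with only the 2 groups compared (0.0507). TNFAIP6, a secreted protein that moves heavy chains onto hyaluronan and so crosslinks it, had the largest mean change of the list. It went from 12.6 ± 0.423 CPM in Ctrl to 1.56 ± 0.766 in line 1 (log2 -2.99 ± 0.188; adjusted p = 5.69e-13) and 2.79 ± 0.257 in line 2 (-2.18 ± 0.176; adjusted p = 1.16e-10). It was not called with the guides, at 9.02 ± 0.712 and 8.86 ± 0.872 against 7.39 ± 0.676 CPM.

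All 7 genes that make the sugar precursors of hyaluronan were tested. There were 1 higher and 2 lower for guide 1, 2 and 1 for guide 2, 1 and 3 for line 1, and 0 and 3 for line 2, where 24.5%, 24.4%, 39.6% and 38.5% of all genes were called. UAP1, which makes the UDP-N-acetylglucosamine that HAS enzymes use, fell in all 4 arms. It went from 89.3 ± 3.17 CPM in sgCtrl to 52.0 ± 1.68 and 71.2 ± 3.44 with guides 1 and 2, and from 99.7 ± 2.65 in Ctrl to 68.8 ± 1.26 and 64.9 ± 3.97 in lines 1 and 2. GFPT1, the first enzyme of the same route, rose with both guides (log2 0.20 and 0.19) and fell in both lines (-0.14 and -0.17), by at most 1.15-fold. Of these calls, that of guide 2 was lost without guide 2 replicate 2 (adjusted p = 0.0512). That of line 1 was lost without Ctrl replicate 1 or 3 or unnumbered library b or c of line 1 (0.0636 to 0.151) and without the filter on low counts (0.0592).

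Versican, the hyalectan of fibroblasts, showed the largest rise with the guides and no comparable change in the lines. The sgCtrl libraries stood at 5.81, 5.14 and 9.004 CPM, those of guide 1 at 21.2, 22.7 and 19.3, and those of guide 2 at 29.7, 34.5 and 33.4. The 3 groups did not overlap. VCAN was 3.16-fold higher with guide 1 and 4.87-fold with guide 2 (adjusted p = 5.62e-10 and 4.23e-13), and guide 2 exceeded guide 1 by 0.62 ± 0.112 on the log2 scale (adjusted p = 0.000338). PURPL itself was not called different between the guides (guide 2 minus guide 1, log2 0.30 ± 0.119; adjusted p = 0.128; approximate 95% interval 0.07 to 0.53), although a fit of those 2 groups alone gave adjusted p = 0.0386.

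In the overexpression table VCAN was already high without overexpression, at 91.0, 93.6 and 88.7 CPM in Ctrl. In line 1 it stood at 82.2, 84.5 and 86.0 CPM, and in line 2 at 103, 99.8 and 100.5. Line 1 lay just below Ctrl (log2 -0.11 ± 0.0520; adjusted p = 0.0834) and line 2 just above it (0.15 ± 0.0520; adjusted p = 0.0219), and the lines differed by 0.26 ± 0.0520 (adjusted p = 0.000596). The call of line 2 was lost without Ctrl replicate 1 or 3 or unnumbered library a of line 2 (adjusted p = 0.0639 to 0.0781) and without the filter on low counts (0.0671). In the joint fit of all 18 libraries, the mean effect of the guides exceeded that of the lines by 1.96 ± 0.121 on the log2 scale (adjusted p = 1.09e-17). VCAN-AS1, on the opposite strand, had 4 counts over the 3 libraries of guide 2, 0 in sgCtrl and guide 1, and 10, 4 and 13 in Ctrl, line 1 and line 2.

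HAPLN1, the link protein encoded next to VCAN, was lower in line 2. It had almost no counts in the knockdown table, with 0, 1 and 0 counts in sgCtrl, 1, 2 and 1 with guide 1 and 8, 0 and 2 with guide 2, and did not pass the filter there. Without the filter it stood at log2 1.68 with guide 1 and 2.93 with guide 2 (adjusted p = 0.63 and 0.164). In the other table it had 167, 161 and 93 counts in Ctrl (5.87 ± 0.929 CPM), 161, 113 and 158 in line 1 (5.70 ± 0.588 CPM) and 35, 51 and 45 in line 2 (2.02 ± 0.292 CPM). Line 1 overlapped Ctrl and line 2 lay below both. HAPLN1 fell 2.92-fold in line 2 (log2 -1.54 ± 0.173; adjusted p = 1.59e-08), differed between the lines by -1.49 ± 0.173 (adjusted p = 2.16e-07), and was not called in line 1 (-0.05 ± 0.146; adjusted p = 0.819; approximate 95% interval -0.34 to 0.24). So in line 2 HAPLN1 lay below Ctrl, while its neighbour VCAN lay just above it, by a call that was lost on leaving out some single libraries.

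The 5 other hyalectan and link protein genes are mostly those of brain (NCAN, BCAN, HAPLN2, HAPLN4), and only HAPLN3 had enough counts for a test. NCAN had 9 counts over all libraries, BCAN 7 and HAPLN2 4. HAPLN4 lies wholly inside another gene of its strand (ENSG00000267629) and so in the class with no counts at all, and its 0 counts say nothing of its expression. HAPLN3 lies 1.94 kb from ACAN, with 567 counts over all libraries against 8 for ACAN. It was higher with guide 2, at 3.51 ± 0.853 against 2.101 ± 0.198 CPM (log2 0.75 ± 0.234; adjusted p = 0.019). That call was lost without sgCtrl replicate 3 (0.0593), without guide 2 replicate 3 (0.163) and by DESeq2 (0.0921), and it was not called in the other 3 arms. Proteases that cut hyalectans numbered 7, of which 5 were tested. The calls were 0 higher and 1 lower for guide 1, 3 and 0 for guide 2, 2 and 1 for line 1 and 3 and 0 for line 2, with 24.5%, 24.4%, 39.6% and 38.5% of all genes called. ADAMTS5, an aggrecanase that also cuts versican, fell with guide 1 (49.1 ± 5.44 to 36.2 ± 1.88 CPM; adjusted p = 0.000217). It rose with guide 2 (to 58.7 ± 5.76; adjusted p = 0.0219, lost without sgCtrl replicate 1, 0.112, or guide 2 replicate 2, 0.192, and by DESeq2, 0.0556). It rose from 24.6 ± 1.00 CPM in Ctrl to 50.8 ± 3.73 in line 1 and 31.7 ± 0.391 in line 2 (adjusted p = 1.7e-13 and 0.000137). ADAMTS4, a related enzyme, was called in line 1 alone, at 0.526 ± 0.291 against 1.44 ± 0.332 CPM (log2 -1.42 ± 0.368; adjusted p = 0.00258), and in line 2 stood at 0.761 ± 0.132 CPM (adjusted p = 0.0506, and 0.0494 with the scaling of DESeq2).

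Decorin rose in all 4 arms and most in line 2. It stood at 451, 415 and 405 CPM in sgCtrl, 599, 633 and 635 with guide 1 and 504, 460 and 480 with guide 2. It stood at 1747, 1795 and 1495 CPM in Ctrl, 2262, 2146 and 2222 in line 1 and 3230, 3123 and 3123 in line 2. No arm overlapped its control. The rise was 1.47-fold with guide 1 (log2 0.55 ± 0.0590; adjusted p = 1.36e-08). In line 1 it was 1.32-fold (0.40 ± 0.0581; adjusted p = 1.8e-06), and in line 2 it was 1.88-fold (0.91 ± 0.0584; adjusted p = 8.75e-14). With guide 2 it was 1.13-fold (0.18 ± 0.0590; adjusted p = 0.0228), a call lost without sgCtrl replicate 2 or 3 or guide 2 replicate 1 or 3 (adjusted p = 0.057 to 0.13). The joint fit put the effect of the guides 0.28 ± 0.0757 below that of the lines (log2; adjusted p = 0.00303).

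Biglycan, the closest relative of decorin, also rose in all 4 arms. Its libraries stood at 72.3, 76.3 and 75.0 CPM in sgCtrl, 156, 155 and 138 with guide 1 and 95.5, 97.4 and 106 with guide 2. They stood at 218, 234 and 261 CPM in Ctrl, 338, 373 and 380 in line 1 and 463, 482 and 430 in line 2. All groups of a table were apart from each other. BGN was 2.01-fold higher with guide 1 (adjusted p = 3.52e-13), 1.338-fold with guide 2 (1.39e-05), 1.53-fold in line 1 (3.09e-09) and 1.93-fold in line 2 (4.78e-13). For BGN and DCN alike, guide 1 exceeded guide 2 (by 1.503-fold and 1.29-fold; adjusted p = 1.02e-07 and 4.15e-05), the reverse of VCAN. Line 2 exceeded line 1 (by 1.26-fold and 1.43-fold; adjusted p = 0.000293 and 1.41e-07). PURPL itself was higher in line 1 than in line 2, and a relation of these genes to its level was not tested. The effect of the guides on BGN was not called different from that of the lines (log2 -0.06 ± 0.0823; adjusted p = 0.611; approximate 95% interval -0.22 to 0.10).

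Lumican, the neighbour of decorin, did not rise with the guides. It stood at 6272, 5416 and 5294 CPM in sgCtrl, 5387, 5208 and 5327 with guide 1 and 4709.97, 4535 and 4617 with guide 2. It stood at 8421, 7704 and 9273 CPM in Ctrl, 9498, 8705 and 8241 in line 1 and 11119, 10906 and 11061 in line 2. Guide 1 and line 1 overlapped their controls, guide 2 lay below sgCtrl and line 2 above Ctrl. LUM fell 1.23-fold with guide 2 (log2 -0.29 ± 0.0611; adjusted p = 0.000544) and rose 1.30-fold in line 2 (0.38 ± 0.0622; adjusted p = 1.16e-05). It was not called with guide 1 (-0.09 ± 0.0611; adjusted p = 0.292) or in line 1 (0.06 ± 0.0621; adjusted p = 0.493). The joint fit set the effect of the guides 0.41 ± 0.0814 below that of the lines (adjusted p = 8.75e-05).

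Since DCN gained on LUM in each arm, the ratio of their counts fell. There were 13.04 to 13.9 LUM counts per DCN count in sgCtrl, 8.23 to 8.995 with guide 1 and 9.35 to 9.87 with guide 2. There were 4.29 to 6.201 in Ctrl, 3.71 to 4.20 in line 1 and 3.44 to 3.54 in line 2. No arm overlapped its control (exact permutation test, two-sided, p = 0.1, the smallest possible).

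Of the 13 other small leucine-rich proteoglycans, 6 were tested for knockdown and 8 for overexpression. With guide 1, 1 was higher and 1 lower, and with guide 2, 1 and 0, where 24.5% and 24.4% of all genes were called. In line 1, 7 were higher and 1 lower, and in line 2, 6 and 0, where 19.5% and 18.9% of all genes were called higher. The median log2 change of those tested was 0.88 in line 1 and 1.09 in line 2, against 0.0076 and 0.0069 over all genes. Of these 8 genes, OGN and PODNL1 passed the filter through the lines: OGN exceeded the cutoff of 0.4051 CPM in 0 of 3 Ctrl libraries and PODNL1 in 2 of 3, against all libraries of both lines. Among the other 6, line 1 had 5 higher and 1 lower and line 2 had 4 higher and 0 lower, with medians of 0.64 and 0.55. ECM2, a matrix protein of this repeat family, rose in all 4 arms. It went from 2.57 ± 1.15 to 5.52 ± 0.798 and 4.92 ± 1.09 CPM with the guides, and from 11.1 ± 0.487 to 23.3 ± 1.62 and 29.2 ± 0.287 CPM in the lines. PODNL1, a relative of podocan, had the largest mean change of the list and was rare. It stood at 0.338 ± 0.158 CPM in Ctrl against 1.02 ± 0.096 in line 1 and 0.842 ± 0.084 in line 2 (adjusted p = 0.00196 and 0.0135, the second lost without Ctrl replicate 3, 0.0762). As it was kept through the lines, these calls are no support for a rise. It was not called with the guides.

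**Figure D4:**
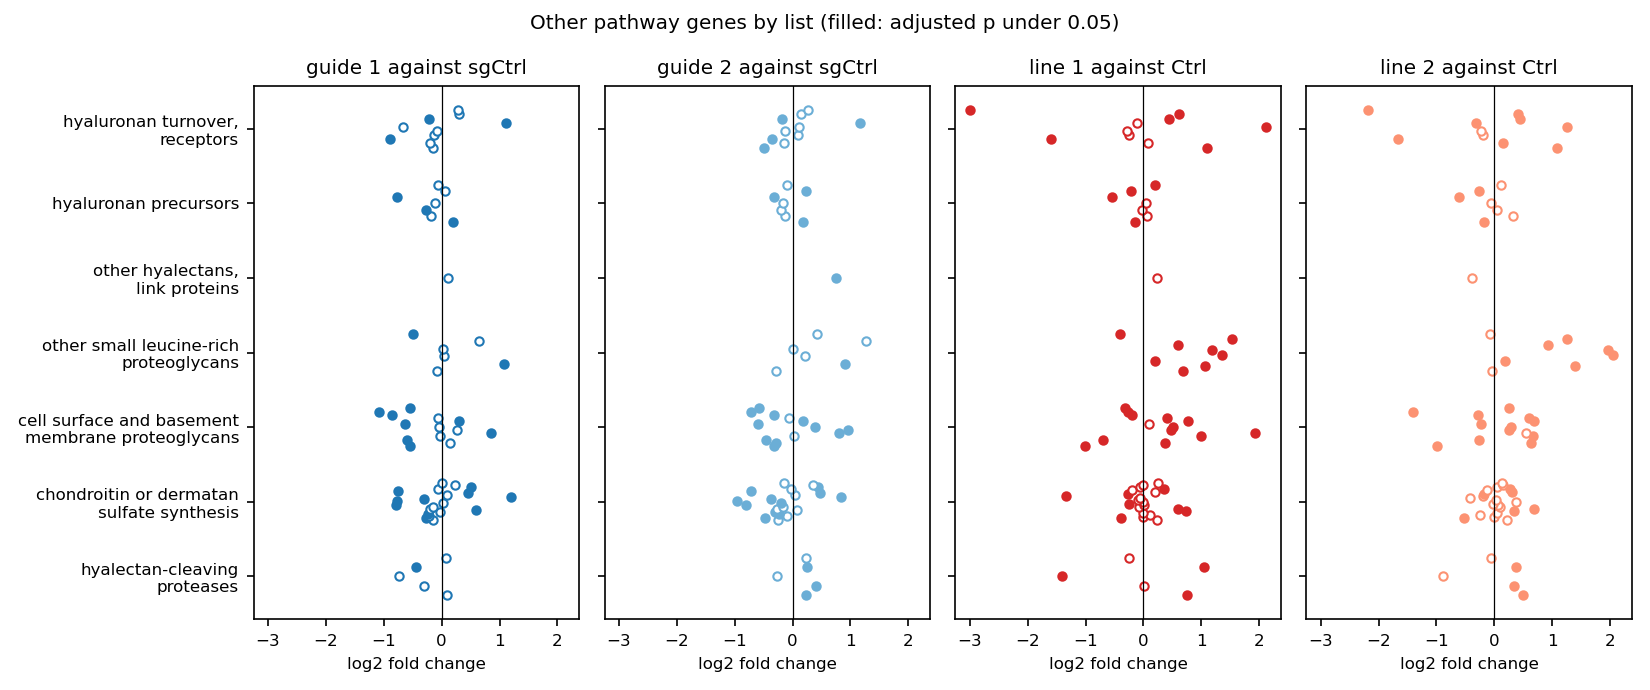
Log2 fold change of the tested genes of 7 lists of related genes (rows; 1 point per gene) in each of the 4 arms (panels), with filled points for an adjusted p under 0.05. In the row of other small leucine-rich proteoglycans, 7 of 8 points in line 1 and 6 of 8 in line 2 are called higher, OGN and PODNL1 among them; the lowest point of the top row in the lines is TNFAIP6.

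Proteoglycans of the cell surface and basement membrane went both ways. Of 16 such genes, 13 were tested. There were 2 higher and 6 lower for guide 1, 4 and 7 for guide 2, and 7 and 5 in each line, where 24.5% (guide 1), 24.4% (guide 2), 39.6% (line 1) and 38.5% (line 2) of all genes were called. The heparan sulfate proteoglycan syndecan-2 (SDC2) rose in all 4 arms. It went from 119.9 ± 2.27 to 147 ± 3.08 and 136 ± 2.44 CPM with the guides, and from 80.2 ± 4.01 to 137 ± 4.45 and 129 ± 5.55 CPM in the lines. Its call with guide 2 was lost without guide 2 replicate 1 (adjusted p = 0.0776) and without the filter on low counts (0.052). Syndecan-4 (SDC4), its relative at focal adhesions, fell in all 4. It went from 107 ± 4.30 to 59.0 ± 0.346 and 85.7 ± 6.73 CPM and from 125 ± 8.03 to 109 ± 4.29 and 103 ± 4.30 CPM.

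Serglycin (SRGN), a proteoglycan of secretory granules, fell most with guide 1, from 56.4 ± 7.74 to 26.5 ± 1.17 CPM, and in line 2, from 57.4 ± 4.55 to 21.6 ± 1.40 CPM. It was also lower with guide 2 and in line 1 (34.2 ± 3.10 and 47.4 ± 5.17 CPM). AGRN, the basement membrane proteoglycan agrin, fell from 80.01 ± 11.4 to 54.7 ± 4.18 and 64.2 ± 6.62 CPM with the guides. In the lines it fell from 10.004 ± 1.30 to 4.94 ± 0.354 and 5.12 ± 1.22 CPM. The guide 2 call was lost without sgCtrl replicate 2 (adjusted p = 0.118) or guide 2 replicate 2 (0.0726). CSPG4, a membrane chondroitin sulfate proteoglycan, fell from 50.2 ± 2.36 to 33.3 ± 3.97 and 36.3 ± 4.78 CPM with the guides. In the lines it fell from 14.7 ± 1.60 to 9.11 ± 0.522 and 12.2 ± 1.36 CPM. Its line 2 call (adjusted p = 0.0417) was lost without Ctrl replicate 2 or 3, unnumbered library b or replicate 3 of line 2 (0.0581 to 0.241), and by DESeq2 (0.0978). That call was lost as well without the filter on low counts (0.0576) and with only the 2 groups compared (0.0589). TGFBR3, the co-receptor betaglycan, fell with both guides (log2 -0.55 and -0.59) and in line 1 (-0.33) and rose in line 2 (0.25; adjusted p = 0.00366). GPC4, a glypican, rose with both guides (0.84 and 0.81) and in line 1 (1.93 ± 0.213; adjusted p = 1.05e-08). It was not called in line 2 (0.55 ± 0.246; adjusted p = 0.0795).

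The genes that build the chondroitin and dermatan sulfate chains numbered 22. With guide 1, 4 of 20 tested were higher and 6 lower, and with guide 2, 3 and 8. In line 1, 3 of 21 were higher and 4 lower, and in line 2, 4 and 2. The shares called over all genes were 24.5% and 24.4% with the guides and 39.6% and 38.5% in the lines. CHSY3, a chondroitin synthase, rose with both guides like VCAN, from 2.51 ± 0.461 to 5.81 ± 0.293 and 4.54 ± 0.214 CPM (adjusted p = 1.36e-05 and 0.00191). It was not called in the lines, at 3.01 ± 0.503 CPM in Ctrl, 2.92 ± 0.379 in line 1 and 2.27 ± 0.359 in line 2. B3GAT3, which completes the linker that joins the chains to the protein, was called lower in all 4 arms (log2 -0.28, -0.48, -0.38 and -0.52). Only the guide 2 call withstood each single library left out: the others were lost in 5, 5 and 2 of 6 such fits (guide 1, adjusted p = 0.0678 to 0.202; line 1, 0.08 to 0.231; line 2, 0.0658 to 0.0769). The guide 1 and line 1 calls were also lost by DESeq2 (adjusted p = 0.137 and 0.145) and without the filter on low counts (0.06225 and 0.101).

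**Figure D5:**
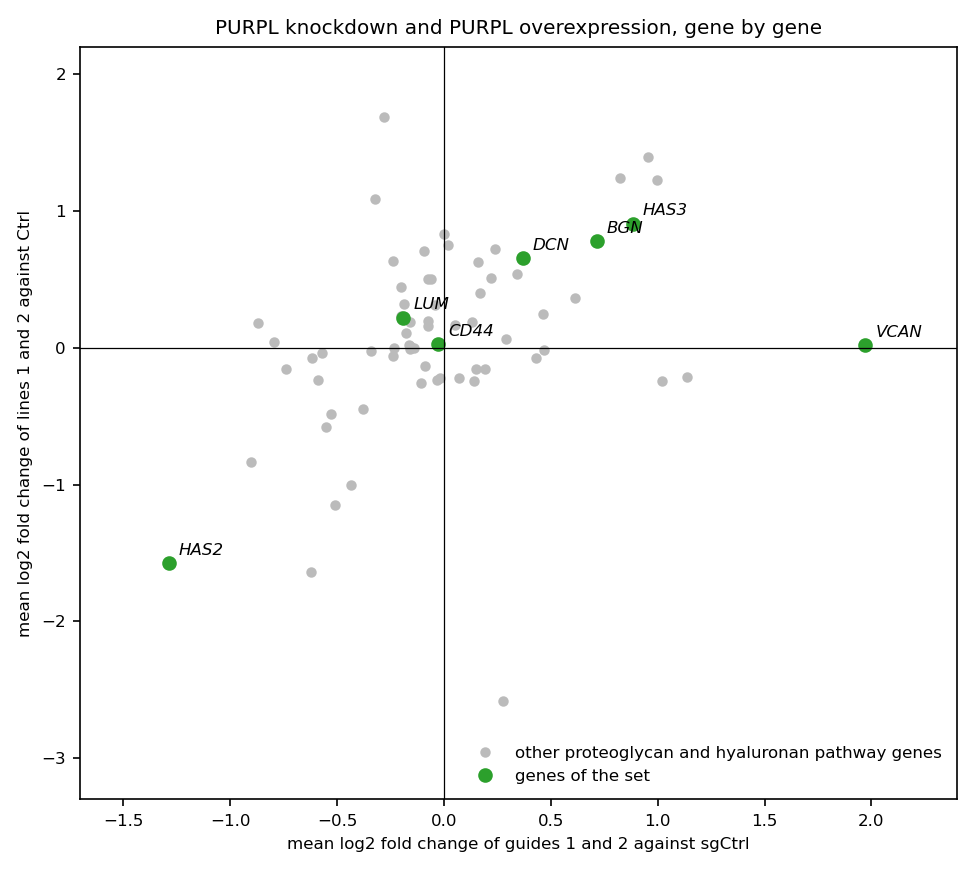
Mean log2 fold change of both guides against sgCtrl (x axis) and of both lines against Ctrl (y axis) for the genes tested in both tables: 7 genes of the set (green, named) and the related genes of the 7 lists (grey). HAS3, BGN and DCN lie in the upper right, HAS2 in the lower left, and VCAN far to the right near 0 on the y axis. HAS2 was kept in the knockdown table only through sgCtrl, so its place on the x axis is no support for a fall with the guides.

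In the joint fit the effect of knockdown differed from that of overexpression for 4 of the 8 genes tested, 2 higher (VCAN and HAPLN1) and 2 lower (DCN and LUM). Of all 15166 genes, 33.6% differed (18% higher, 15.6% lower). HAPLN1 entered this fit through the overexpression libraries, as it did not pass the filter of the knockdown table. The HAPLN1 value (3.20 ± 1.12; adjusted p = 0.0238) rests on the few counts of the knockdown table and was lost without sgCtrl replicate 1 or 3, guide 1 replicate 2 or guide 2 replicate 1 (adjusted p = 0.0706 to 0.142). On leaving out 1 library it ranged from 2.37 without guide 2 replicate 1 to 5.48 without sgCtrl replicate 2. HAS2 (0.28 ± 0.370; adjusted p = 0.611) and HAS3 (-0.02 ± 0.301; adjusted p = 0.973) were not called, with approximate 95% intervals of -0.44 to 1.01 and -0.61 to 0.57.

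The controls of the 2 tables differed for most of these genes, although both are BJ cells. Ctrl over sgCtrl was 13.7-fold for VCAN (91.1 against 6.65 CPM), 10.7-fold for HAS2 (12.7 against 1.18), 3.96-fold for DCN, 3.19-fold for BGN and 1.496-fold for LUM. It was 0.985 for CD44 and 0.691 for HAS3. HAPLN1 had 421 counts over the 3 Ctrl libraries and 1 over the 3 sgCtrl libraries. The tables were normalized separately, and here the experiment and the control cannot be told apart. With guide 2, VCAN stood at 32.5 ± 2.53 CPM, below all 9 libraries of the overexpression table.

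To describe which genes varied most like each gene of the set, log2 CPM minus the mean of the own table's controls was correlated over all 18 libraries with 13638 genes. The libraries share their 2 controls and fall into 6 groups, so r mainly reflects the group means and carries no test. The closest genes were SMAD7, ID2 and SKIL for VCAN (r = 0.978, 0.978 and 0.974), SLC6A6, EPHX1 and DNM3OS for BGN (0.951, 0.949 and 0.946). They were MFAP4, CRTAP and FOXF2 for DCN (0.947, 0.934 and 0.932) and ZCCHC24, RAP2B and CD9 for LUM (0.957, 0.935 and 0.924). They were C1orf159, FRMD5 and KIF20A for HAS2 (0.942, 0.940 and 0.913), COL4A2, HMGB3 and PSAT1 for HAS3 (0.916, 0.912 and 0.901) and ARMC9, NDRG1 and NRP1 for CD44 (0.888, 0.887 and 0.877). Within the set, r was highest for DCN with BGN (0.870) and lowest for HAS2 with BGN (-0.841), while VCAN ran against LUM (-0.671).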

How the data were processed

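Poly(A) RNA of 18 libraries in 6 groups of 3 was sequenced. The deposited values are raw read counts per gene in 2 tables, which the authors made, per the submitters' processing notes, with FastQC 0.11.9, cutadapt 3.3, HISAT2 2.1.0, SAMtools 1.11 and featureCounts 2.0.1 (Subread), on hg38 and GRCh38.p13; those notes also name DESeq2 1.34.0. No annotation release or strand setting is named in the sources used here. The molecule is labelled genomic DNA, against the RNA protocol.

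Columns were matched to samples by name. Of the overexpression columns, 5 have names without a replicate number, which serve as unnumbered replicates of their group.

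Each table of 9 libraries was fitted with edgeR 4.0.16 in R 4.3.3 (limma 3.58.1 installed): TMM scaling, a filter on low counts (filterByExpr, minimum count 10, minimum total 15), the quasi-likelihood test with 6 residual degrees of freedom, and Benjamini-Hochberg adjustment over all genes tested. A joint fit of all 18 libraries compared the effect of knockdown with that of overexpression. Standard errors were derived as the absolute log2 fold change divided by the square root of the test's F statistic. Approximate 95% intervals come from the estimate and this standard error, with a normal quantile. Counts come from PCR reads without molecular identifiers as far as the labels say, so limits from 3 counts cover counting error only. The scripts were tested on simulated data.

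Named genes are the 10 of the set; from each of 7 related lists (hyaluronan turnover and receptors, hyaluronan precursor synthesis, other hyalectans and link proteins, other small leucine-rich proteoglycans, cell surface and basement membrane proteoglycans, chondroitin and dermatan sulfate synthesis, hyalectan-cleaving proteases) those called in all 4 arms and the one with the largest mean change; the 3 genes most alike to each; and PURPL. The genes, lists and tests were chosen with earlier results of these data known.

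No 2 replicates were as close as sampling noise: chi-square per gene was at least 2.50 over 9 pairs in the knockdown and 3.60 over 9 pairs in the overexpression table. Alternatives were RLE size factors, no filter, DESeq2 1.42.0, only the 2 groups compared, a replicate block and leaving out each library.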

Additional observations from a re-analysis of the deposited data

Results flagged for a closer look

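The 2 guides differed from each other, by the test of that difference (edgeR's quasi-likelihood test), for 5 of the 7 genes tested, where 9.25% of all 13923 genes differed. Guide 2 minus guide 1 was 0.62 on the log2 scale for VCAN, -0.59 for BGN, -0.37 for DCN, -0.32 for CD44 and -0.20 for LUM. The LUM difference (adjusted p = 0.0341) was lost on leaving out any 1 of its 6 libraries (adjusted p = 0.0855 to 0.166).

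The 2 overexpression lines differed for 6 of the 8 genes tested, where 12.4% of all 15267 genes differed. Line 2 minus line 1 was -1.49 for HAPLN1, 0.52 for DCN, 0.41 for HAS2, 0.33 for BGN, 0.32 for LUM and 0.26 for VCAN, on the log2 scale. The HAS2 difference (adjusted p = 0.0465) was lost in 5 of 6 fits that left out 1 library (0.0698 to 0.183). Of these fits, it held only in the one without unnumbered library b of line 2. The call was also lost by DESeq2 (0.111), without the filter on low counts (0.104) and with only the 2 groups compared (0.0829).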

How the results depend on the processing

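The number of genes of the set called in each comparison stayed within 1.5 times in all 84 alternative fits, as did that of the 7 lists and of all genes (84 of 84 each). Of 638 alternative log2 fold changes of the set, 585 kept direction and call, 40 lost the call, 2 gained it and 11 changed sign; of 878 for the related genes and PURPL the numbers were 825, 46, 4 and 3. All sign changes came on leaving out 1 library and none concerned a call: the log2 change ranged from -0.17 to 0.028 for HAPLN1 in line 1, from -0.0051 to 0.13 for LUM in line 1, from -0.18 to 0.046 for CHSY3 in line 1, and, knockdown against overexpression, from -0.068 to 0.50 for HAS2 and from -0.22 to 0.18 for HAS3. The cause was not tested. Deviations of same-numbered libraries of the knockdown table from their group means had r from -0.0888 to 0.0386, so no shared deviation was seen. These values cannot tell whether same-numbered libraries were prepared together. With a replicate block the set kept 5 and 6 calls for guides 1 and 2, and all genes gave 3250 and 3217 calls in place of 3417 and 3393; LUM between the guides (-0.20; adjusted p = 0.0556) and B3GAT3 with guide 1 (-0.28; 0.0581) were no longer called. No paired analysis was possible in the overexpression table because 5 columns carry no number. Counting depth limits HAS1, ACAN, HAS2 and HAPLN1 in the knockdown table most: without the filter, HAPLN1 stood at 1.68 with guide 1 (adjusted p = 0.63) and 2.93 with guide 2 (0.164).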

Other observations

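Some other genes of the related lists, chosen here after their values were seen, are given by their values. CEMIP, a hyaluronan-binding protein needed for hyaluronan breakdown in skin fibroblasts, rose from 1525 CPM in Ctrl to 3261 in line 1 and 3234 in line 2 (log2 1.10 ± 0.0514 and 1.08 ± 0.0514; edgeR's quasi-likelihood test, adjusted p = 4e-17 and 5.95e-17). It fell from 2077 CPM in sgCtrl to 1469 with guide 2 (-0.50 ± 0.0709; adjusted p = 4.74e-06) and was not called with guide 1, at 1874 CPM (adjusted p = 0.132). In the joint fit the effect of the guides was 1.41 ± 0.0807 lower than that of the lines (log2 -1.41; adjusted p = 8.71e-19). ITIH5, of the family whose heavy chains are bound to hyaluronan, went the other way: it rose from 15.6 CPM in sgCtrl to 33.8 and 35.0 with guides 1 and 2 (adjusted p = 1.15e-09 and 5.86e-10), and stood at 22.0 and 19.0 CPM in lines 1 and 2 against 23.7 in Ctrl (adjusted p = 0.33 and 0.00231).

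Among small leucine-rich proteoglycans, PODN rose from 58.8 CPM in Ctrl to 88.6 and 111 in lines 1 and 2, and OMD from 1.14 to 2.61 and 4.51 CPM. OGN stood at 0.225 CPM in Ctrl, below the filter's cutoff of 0.4051 CPM, and at 0.588 and 0.959 in the lines, through which alone it was kept. PODN stood at 152, 154 and 153 CPM in sgCtrl, guide 1 and guide 2 and was not called there (adjusted p = 0.884 and 0.903), and the joint fit put the effect of the guides 0.73 ± 0.0835 below that of the lines (log2 -0.73; adjusted p = 1.31e-09). OMD and OGN had too few counts in that table for a test. CHST15, a chondroitin sulfotransferase, fell from 43.3 CPM in sgCtrl to 25.2 and 24.8 with the guides (adjusted p = 2.49e-08 and 1.82e-08) and was not called in the lines (0.928 and 0.528); in the joint fit the 2 effects differed by -0.83 ± 0.100 (log2; adjusted p = 5.97e-09).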
